A study of Mus musculus with 24 samples.

Results

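The 37 genes described here carry cholesterol through its life in the brain: its synthesis from acetyl-CoA, its uptake in lipoproteins, its movement inside the cell, its export and its removal. They were taken as a named list of genes with these roles, drawn up with earlier results of the same data known, out of 21793 genes in a table of hippocampal RNA levels. The list was read by role, with 7 genes of early synthesis, 11 of sterol synthesis, 5 of sterol sensing, 2 of uptake, 3 of intracellular transport, 7 of efflux and 2 of turnover. All 37 passed the filter on low values (10 normalised counts in at least 3 libraries), as did 14162 genes in all.

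Cholesterol does not cross the blood-brain barrier in useful amounts, so the brain makes its own, mostly in oligodendrocytes while myelin is laid down and in astrocytes later. When sterol in the endoplasmic reticulum is low, the transcription factor SREBP2, released with the escort protein SCAP and held back by the INSIG proteins, raises the synthesis enzymes and lipoprotein receptors, and when it is in excess, oxysterols activate the liver X receptors, which raise the export pumps and their carrier apolipoprotein E. Neurons take up this sterol through receptors of the LDL receptor family and dispose of the surplus by hydroxylating it, and variation in several of these genes has been studied in Alzheimer's disease.

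The RNA came from whole hippocampi of 24 female mice, 1 library per mouse, and was poly(A)-selected. The tested mice were of the 3xTg-AD genotype, which carries human mutant APP and tau transgenes driven by a Thy1 cassette and a mutant presenilin 1 allele, and the WT mice were B6129SF2/J. From 3 months of age they ate 1 of 3 diets for 6 months. The ketogenic diet had no carbohydrate, 90% long-chain triglycerides and 10% protein (6.7 kcal/g; 5 3xTg and 4 WT mice). In the diet enriched in medium-chain triglycerides (MCT) these replaced part of the long-chain fat of the control diet, so that each kind of triglyceride made up 10%, beside 70% carbohydrate and 10% protein (4.1 kcal/g; 4 mice of each genotype). The control diet had 70% carbohydrate, 20% long-chain triglycerides and 10% protein (4.1 kcal/g; 3 3xTg and 4 WT mice). The transgenic line and B6129SF2/J also differ in strain background, which cannot be told apart from the transgenes here.

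Libraries held between 10078435 and 25810846 reads in genes, except 3xTg ketogenic replicate 2 with 2653427. Thy1, which the transgene cassette shares, stood at 20385 to 29277 normalised counts in 10 libraries labelled 3xTg and at 6952 to 8137 in 11 labelled WT. The remaining 3 libraries went against their labels: Thy1 was 8112 in the library labelled 3xTg ketogenic replicate 1, 9189 in that labelled 3xTg control replicate 3 and 23048 in that labelled WT MCT replicate 2. App was 23020 in 3xTg ketogenic replicate 1 and 23524 in 3xTg control replicate 3, against 29473 to 37175 in the other 3xTg libraries. It was 30297 in WT MCT replicate 2, against 21293 to 25302 in the other WT libraries. These 3 libraries are kept under their labels in the main results. The counts of genes that passed, the directions by diet and the marker calls in the genotype comparisons are also given from the other 21.

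Levels can be set between genes only per length, here that of all annotated exons of a gene merged. On the scale of normalised counts per kilobase of merged exon Apoe was the highest of the 37, with a mean of 7334 over the 24 libraries. Hmgcs1, the first dedicated enzyme of the mevalonate route, followed at 982, then Cyp46a1, the neuronal cholesterol 24-hydroxylase, at 363, Lrp1 at 339.8, Srebf2 at 316 and Sc5d at 312. The lowest were Idi1 at 14.7, Nr1h3 at 12.05 and Fdps at 5.77. This order depends on the length used. Merged exons hold 6144 bases in Msmo1 and 4208 in Fdps, against 2044 and 1382 in their longest coding transcripts. Much of the Fdps transcript is also found elsewhere: 86.4% of its 50-base words occur in 8 other annotated genes, against 45.9% for Acat2, 30.7% for Fdft1, 30.5% for Idi1 and 13.6% for Hmgcs1. Values of these genes are therefore uncertain, the more so since Fdft1 and Hmgcs1 share words with genes that overlap them on the other strand (Ctsb and Gm48342) and no source used here gives the strand setting of the counting.

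The promoters of 4 members are shown because these genes bear on the results below: Hmgcs1, Cyp51 and Sc5d, synthesis genes that were higher in 3xTg mice, and Lcat, an export gene that was lower. The sequences are RefSeq's for build GRCm38.p6, each the 250 bases before the annotated start, read 5′ to 3′ on the gene's own strand. Capitals mark matches to the exact letters TCACNCCAC, taken for the sterol regulatory element, the site of the SREBP proteins. They also mark the CCAAT box (CCAAT, or ATTGG on the other strand, bound by NF-Y).
Hmgcs1, plus strand, chr13:119690101-119690350: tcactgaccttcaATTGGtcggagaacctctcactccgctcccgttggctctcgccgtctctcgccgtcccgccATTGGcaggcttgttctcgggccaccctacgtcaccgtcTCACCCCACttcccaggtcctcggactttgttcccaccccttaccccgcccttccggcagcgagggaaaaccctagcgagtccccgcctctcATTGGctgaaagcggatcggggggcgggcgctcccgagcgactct
Cyp51, minus strand, chr5:4104698-4104947: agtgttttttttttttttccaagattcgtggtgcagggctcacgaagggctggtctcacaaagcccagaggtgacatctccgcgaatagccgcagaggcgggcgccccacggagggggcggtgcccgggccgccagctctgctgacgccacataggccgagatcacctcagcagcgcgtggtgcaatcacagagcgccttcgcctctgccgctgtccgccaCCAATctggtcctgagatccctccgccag
Sc5d, minus strand, chr9:42264301-42264550: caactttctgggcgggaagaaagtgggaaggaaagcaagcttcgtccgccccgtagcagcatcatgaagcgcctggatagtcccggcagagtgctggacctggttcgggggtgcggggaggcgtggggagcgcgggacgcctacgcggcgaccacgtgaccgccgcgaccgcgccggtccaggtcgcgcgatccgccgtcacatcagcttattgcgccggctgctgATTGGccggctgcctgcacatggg
Lcat, minus strand, chr8:105943403-105943652: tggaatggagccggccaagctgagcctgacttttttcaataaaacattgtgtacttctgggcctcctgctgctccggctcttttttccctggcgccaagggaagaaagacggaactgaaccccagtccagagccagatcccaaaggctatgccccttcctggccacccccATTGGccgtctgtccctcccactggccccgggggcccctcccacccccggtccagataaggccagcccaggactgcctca
Of the 37 members, 30 had a promoter in the RefSeq table, including 15 of the 18 synthesis genes, and windows of 250 bases before to 50 after the start were searched on both strands for 4 motifs, none of which overlapped another in these windows. The exact letters taken for the sterol regulatory element were found in 1 member, Hmgcs1, with their first base at -137 (TCACCCCAC). They were found in 1.39% of the 11170 tested genes with a promoter. Sites with other letters were not searched for, so an unmarked promoter may still hold one. Hmgcs1 also had CCAAT boxes at -237, -176 and -45 and, after the start and outside the printed bases, at 11. A CCAAT box was found in 14 of the 15 synthesis genes (93.3%), against 42.6% of all tested genes, with its first base at -29 in Cyp51, -24 in Sc5d and -80 in the efflux gene Lcat. A GC box (GGGCGG, bound by SP1) was also found in 14 of the 15 synthesis genes, against 67.6% of all tested genes. The fourth motif, the exact consensus of the direct repeat bound by the liver X receptors, was found in 0 of 30 members and 0 of the 11170. These are matches of letters only.

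**Figure D1:**
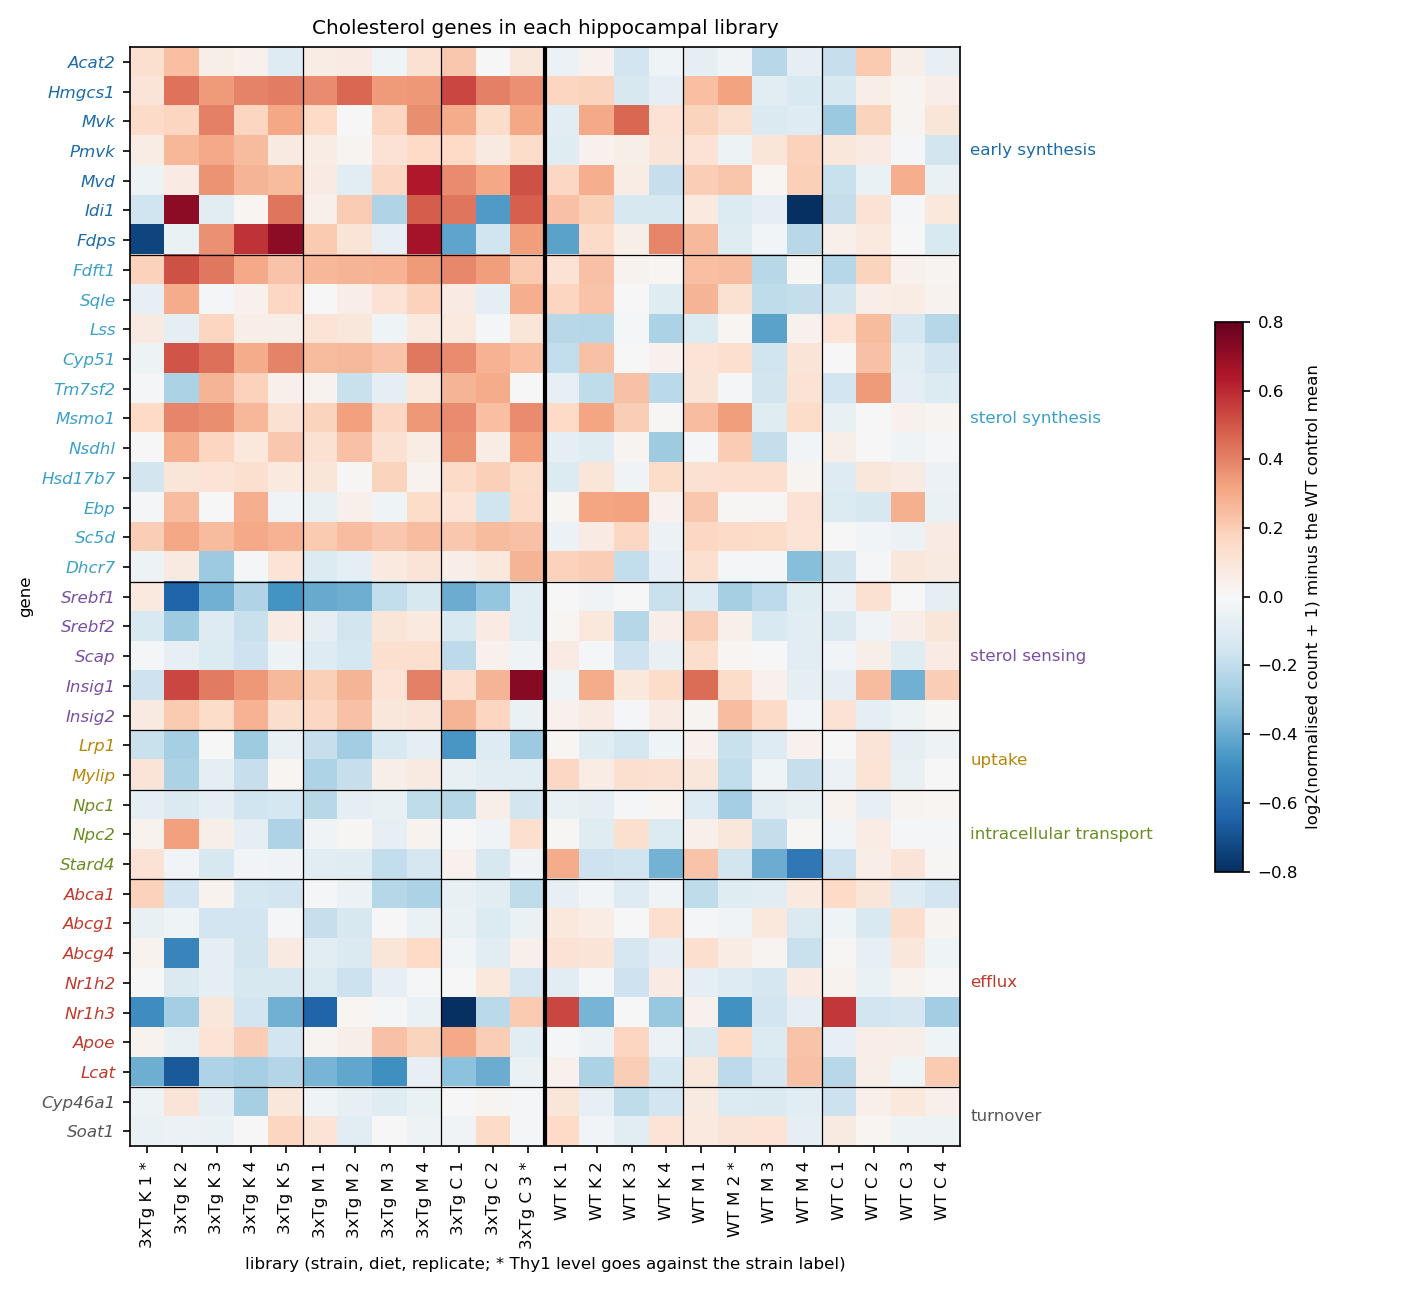
Heat map of the 37 genes (rows, coloured and grouped by role) in each of the 24 libraries (columns: 3xTg, then WT; K ketogenic, M MCT, C control diet), as log2(normalised count + 1) minus the mean of the WT control libraries. Most synthesis genes, Hmgcs1 and Cyp51 among them, are redder in the 3xTg columns, while Srebf1 and Lcat are bluer; the asterisk marks the 3 libraries whose Thy1 level goes against their label.

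In 3xTg hippocampi, 6 of the 18 genes that make cholesterol were higher, and 1 gene each of sensing, uptake and efflux was lower, than in WT, averaged over the 3 diets. Of the 37 members, 9 passed the test (24.3%; limma on log2 values, Benjamini-Hochberg adjusted p under 0.05 over 14162 genes), against 8.10% of all genes tested, a list chosen with earlier results known being no independent sample of genes. The 6 that rose all belong to synthesis: Hmgcs1, Fdft1, Cyp51, Msmo1, Nsdhl and Sc5d. The 3 that fell were Srebf1, the SREBP1 transcription factor gene, Lrp1, a large receptor for apolipoprotein E particles, and Lcat, which esterifies cholesterol on lipoproteins. Of all genes, 3.71% were called higher and 4.38% lower. From the 21 libraries the count was 10 of 37, against 13.2% of all genes, with the same 9 genes and Insig2, a brake on SREBP processing (log2 difference 0.16, adjusted p = 0.00345). The differences were small, the 9 called genes lying between a fall of 0.30 and a rise of 0.34 on the log2 scale.

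Of the 7 early synthesis genes, which take acetyl-CoA to farnesyl diphosphate, all had a positive difference, with a median of 0.15, against a median of -0.00 over all genes, of which 49.6% were above 0. Hmgcs1, HMG-CoA synthase (chromosome 13, 119690379 to 119708260, GRCm38), was the member called. Its normalised counts were 4152, 5224, 4889.9, 5094 and 5136 in 3xTg ketogenic libraries, 5022, 5318, 4891 and 4917 in 3xTg MCT libraries and 5601, 5111 and 4988 in 3xTg control libraries. They were 4362, 4364, 3543 and 3668 in WT ketogenic libraries, 4559, 4824, 3623 and 3555 in WT MCT libraries and 3539, 4002, 3923 and 4018 in WT control libraries. Of the 12 3xTg libraries 11 lay above the highest WT library, and the exception, ketogenic replicate 1 at 4152, is one of those whose Thy1 goes against the label, as is the highest WT library, MCT replicate 2 at 4824. The log2 difference was 0.34 ± 0.05 (SE, adjusted p = 0.000453, limma), a rise of 26.9%, and 0.40 in the 21 libraries (adjusted p = 3.1e-06). In these the genotypes did not overlap, which held for 1.29% of all genes.

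The other 6 early genes did not pass the test. Acat2, acetyl-CoA acetyltransferase, differed by 0.12 (adjusted p = 0.106, limma), Mvk, mevalonate kinase, by 0.15 (0.188), Pmvk, the next kinase, by 0.10 (0.154), and Mvd, the decarboxylase, by 0.18 (0.165). Idi1, the isomerase, differed by 0.23 and Fdps, farnesyl diphosphate synthase, by 0.10, with standard errors of 0.14 and 0.15 (adjusted p = 0.319 and 0.747). The 3xTg libraries lay between 35.4 and 81.0 for Idi1, against 23.1 to 57.7 in WT.

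Of the 11 sterol synthesis genes, which turn farnesyl diphosphate into cholesterol, 10 had a positive difference, with a median of 0.16, and 5 rose. Sc5d, the lathosterol desaturase near the end of the route (chromosome 9, 42251595 to 42264256), had the smallest adjusted p of the 37. Its normalised counts were 1561, 1685, 1625, 1679.8 and 1650.0 in 3xTg ketogenic libraries, 1576, 1620.0, 1584 and 1618 in 3xTg MCT libraries and 1584, 1625 and 1604 in 3xTg control libraries. They were 1321, 1423, 1529 and 1318 in WT ketogenic libraries, 1526, 1516, 1507 and 1471 in WT MCT libraries and 1362, 1342, 1319 and 1428 in WT control libraries. Every 3xTg library, the lowest at 1561, lay above every WT library, the highest at 1529, and this held for 3 of the 14162 genes (0.0212%) with all 24 libraries. This takes as given the labels of 3xTg ketogenic replicate 1 (1561), 3xTg control replicate 3 (1604) and WT MCT replicate 2 (1516). Their Thy1 goes against these labels, while their Sc5d goes with them. In the 21 libraries the genotypes did not overlap either, as for 1.29% of all genes. The log2 difference was 0.19 ± 0.03 (SE, adjusted p = 0.000305, limma), a rise of 13.7%.

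Fdft1, squalene synthase (chromosome 14, 63145150 to 63179578), makes the first compound committed to sterols. Its normalised counts were 1094, 1367, 1286, 1186 and 1123 in 3xTg ketogenic libraries, 1155, 1161, 1165 and 1217 in 3xTg MCT libraries and 1255, 1212 and 1109.5 in 3xTg control libraries. They were 1042, 1130.0, 980.5 and 971 in WT ketogenic libraries, 1135, 1139, 825 and 967 in WT MCT libraries and 818, 1087, 981 and 974 in WT control libraries. In 3xTg mice 9 of 12 libraries exceeded the highest WT library, and the log2 difference was 0.25 ± 0.05 (SE, adjusted p = 0.0049, limma). Cyp51, the lanosterol demethylase (chromosome 5, 4081145 to 4104746), had normalised counts of 932, 1361, 1301, 1178 and 1264 in 3xTg ketogenic libraries, 1144, 1149, 1123 and 1288 in 3xTg MCT libraries and 1247, 1162 and 1133 in 3xTg control libraries. They were 839, 1130.0, 961 and 984 in WT ketogenic libraries, 1035, 1052, 858 and 1029 in WT MCT libraries and 962, 1128, 907 and 862 in WT control libraries. The lowest 3xTg library, ketogenic replicate 1 at 932, lay inside the WT range and 10 of 12 lay above it. The log2 difference of Cyp51 was 0.28 ± 0.06 (SE, adjusted p = 0.00506, limma).

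Nsdhl, a sterol dehydrogenase of the C4 demethylation complex on the X chromosome (72918557 to 72958514), had normalised counts of 299.9, 367, 338, 318 and 349 in 3xTg ketogenic libraries, 326, 353, 326 and 313 in 3xTg MCT libraries and 385, 313 and 377 in 3xTg control libraries. They were 286, 280.3, 305 and 246 in WT ketogenic libraries, 298, 345, 263 and 296 in WT MCT libraries and 309.9, 299.8, 293 and 297 in WT control libraries. The genotypes overlapped over all 24 libraries, where 5 3xTg libraries exceeded the highest WT library, and did not overlap in the 21, which held for 1.29% of all genes. The log2 difference was 0.22 ± 0.05 (SE, adjusted p = 0.00975, limma). Msmo1, the C4 methyl oxidase of the same complex (chromosome 8, 64718139 to 64733792), had normalised counts of 1587, 1858, 1839, 1707 and 1543 in 3xTg ketogenic libraries, 1604, 1786, 1593 and 1807 in 3xTg MCT libraries and 1846, 1679.7 and 1843 in 3xTg control libraries. They were 1588, 1766, 1629 and 1432 in WT ketogenic libraries, 1689, 1794, 1329 and 1573 in WT MCT libraries and 1362, 1426, 1453 and 1441 in WT control libraries. The groups overlapped, with 5 of 12 3xTg libraries above the highest WT library, and the log2 difference was 0.17 ± 0.05 (SE, adjusted p = 0.0210, limma), with an adjusted p of 0.0583 without 3xTg control replicate 1.

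The sterol synthesis genes that did not pass the test included enzymes on both sides of these steps. Lss, lanosterol synthase, differed by 0.16 (adjusted p = 0.0825, limma) and all 12 3xTg libraries lay above the WT mean. Sqle, squalene epoxidase and a control point of the route, differed by 0.06, with a median of 942 in 3xTg and 929.8 in WT libraries (adjusted p = 0.545). Tm7sf2 differed by 0.08, Hsd17b7 by 0.06 and Dhcr7, the last reductase, by 0.04. Ebp, the sterol isomerase just before Sc5d, was the one synthesis gene below 0, at -0.03 (adjusted p = 0.798).

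**Figure D2:**
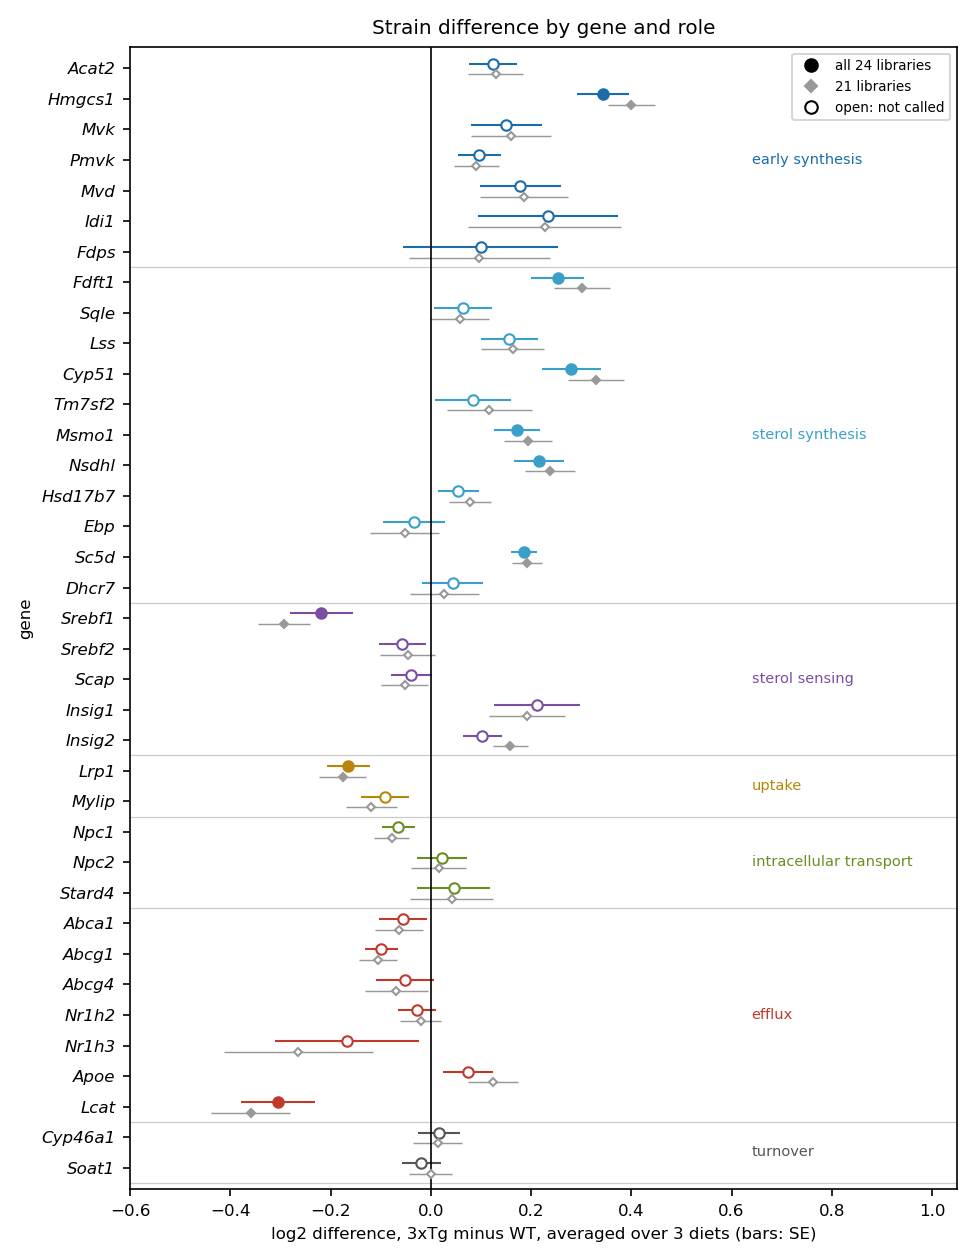
Log2 difference of 3xTg minus WT averaged over the 3 diets for each gene (bars: SE), from all 24 libraries (coloured circles) and from the 21 whose Thy1 goes with their label (grey diamonds); filled symbols passed the test. The synthesis genes lie to the right of 0 except Ebp, and Srebf1, Lrp1 and Lcat are the filled symbols to the left.

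The sensing genes did not move together. Srebf1 encodes the SREBP1 factors, of which SREBP1c mainly serves fatty acid synthesis and is itself a target of the liver X receptors (chromosome 11, 60199089 to 60222581). Its normalised counts were 534, 324, 387, 428 and 362 in 3xTg ketogenic libraries, 383, 386, 442 and 462 in 3xTg MCT libraries and 384, 409 and 478 in 3xTg control libraries. They were 505, 496, 508 and 447 in WT ketogenic libraries, 472, 422, 437 and 472 in WT MCT libraries and 489, 551, 508 and 479 in WT control libraries. In 3xTg mice 7 of 12 libraries lay below the lowest WT library, while ketogenic replicate 1 at 534, one of those against its label, was second only to the highest WT library at 551. The log2 difference was -0.22 ± 0.06 (SE, adjusted p = 0.0302, limma) and -0.29 in the 21 libraries (adjusted p = 0.000461). The call was lost when 1 of 6 libraries was left out, with an adjusted p of 0.0898 without 3xTg control replicate 1, 0.0537 without 3xTg control replicate 2, 0.0571 and 0.0615 without 3xTg MCT replicates 1 and 2, 0.0522 without WT control replicate 2 and 0.0527 without WT MCT replicate 1.

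Srebf2, the factor that mainly drives cholesterol synthesis, differed by -0.06, with a median of 2171 in 3xTg and 2369.9 in WT libraries (adjusted p = 0.491, limma). Scap differed by -0.04 (adjusted p = 0.606). Insig1, itself a target of SREBP, differed by 0.21 ± 0.09 (SE, adjusted p = 0.121, limma): its 3xTg libraries ranged from 580.2 to 1075, with a median of 784, against 498 to 886 in WT, with a median of 704. Both ends of its 3xTg range are libraries against their label, and without the 3 libraries it ran from 701.9 to 939.9, with WT still from 498 to 886. Insig2 differed by 0.10 in all 24 libraries (adjusted p = 0.102). Of these 5 genes, 1 passed the test over the 24 libraries and 2 of 5 differences were positive.

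Both uptake genes had negative differences. Lrp1 (chromosome 10, 127538161 to 127621148) had normalised counts of 5755, 5402, 6506, 5332 and 6228 in 3xTg ketogenic libraries, 5708, 5355, 5978 and 6166 in 3xTg MCT libraries and 4701, 6054 and 5305 in 3xTg control libraries. They were 6558, 6083, 5902 and 6354 in WT ketogenic libraries, 6662, 5731, 6044 and 6663 in WT MCT libraries and 6513, 6991, 6195 and 6319 in WT control libraries. The groups overlapped, with 6 of 12 3xTg libraries below the lowest WT library, and the lowest of all was 3xTg control replicate 1 at 4701. The log2 difference was -0.16 ± 0.04 (SE, adjusted p = 0.0179, limma), with an adjusted p of 0.0638 without that library. Mylip, the ubiquitin ligase that degrades LDL receptors, differed by -0.09 (adjusted p = 0.255).

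None of the 3 genes that carry sterol inside the cell passed the test. Npc1, which moves cholesterol out of late endosomes, had a median of 1115 in 3xTg and 1167 in WT libraries, a log2 difference of -0.07 ± 0.03 (SE, adjusted p = 0.233, limma). Stard4, a soluble sterol carrier and SREBP target, differed by 0.05 ± 0.07 (adjusted p = 0.755, limma). The third gene, Npc2, which hands cholesterol to Npc1, differed by 0.02.

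Of the 7 efflux genes 6 had negative differences, with a median of -0.06, and 1 fell. Lcat, made in the brain by astrocytes (chromosome 8, 105939551 to 105943382), had normalised counts of 190.5, 157, 211, 208 and 212 in 3xTg ketogenic libraries, 194, 187, 178 and 239 in 3xTg MCT libraries and 199.5, 189.9 and 241 in 3xTg control libraries. They were 257, 209.8, 287 and 227 in WT ketogenic libraries, 266, 216, 228 and 295 in WT MCT libraries and 214, 259, 245 and 289 in WT control libraries. In 3xTg mice 8 of 12 libraries lay below the lowest WT library and none lay above the WT mean. The log2 difference was -0.30 ± 0.07 (SE, adjusted p = 0.0123, limma), a fall of 19.0%, the largest fall of the 37, and -0.36 in the 21 libraries.

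The pumps and receptors of efflux did not pass the test. Abcg1, which loads cholesterol onto lipoproteins, differed by -0.10 ± 0.03 (SE, adjusted p = 0.0632, limma), with no 3xTg library above the WT mean, and it passed with DESeq2 (adjusted p = 0.0349). Abca1, the pump that first lipidates apolipoprotein E, differed by -0.06 and the neuronal pump Abcg4 by -0.05. The liver X receptor genes Nr1h2 and Nr1h3 differed by -0.03 and -0.17 (adjusted p = 0.711 and 0.513), Nr1h3 at only 17.6 to 38.2 normalised counts in 3xTg and 23.2 to 49.2 in WT libraries. Apoe, the main apolipoprotein of brain, was the efflux gene above 0, at 0.07 (adjusted p = 0.391, limma). Its libraries ran from 13550.1 to 18564 in 3xTg and from 13927 to 17622 in WT.

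The turnover genes differed little. Cyp46a1, which makes the 24S-hydroxycholesterol that leaves the brain, had a median of 1193 in 3xTg and 1157 in WT libraries and differed by 0.02 ± 0.04 (SE, adjusted p = 0.859, limma). Soat1, which stores cholesterol as esters, differed by -0.02 ± 0.04 (SE, adjusted p = 0.818, limma). The genotypes' ranges overlapped for both genes.

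**Figure D3:**
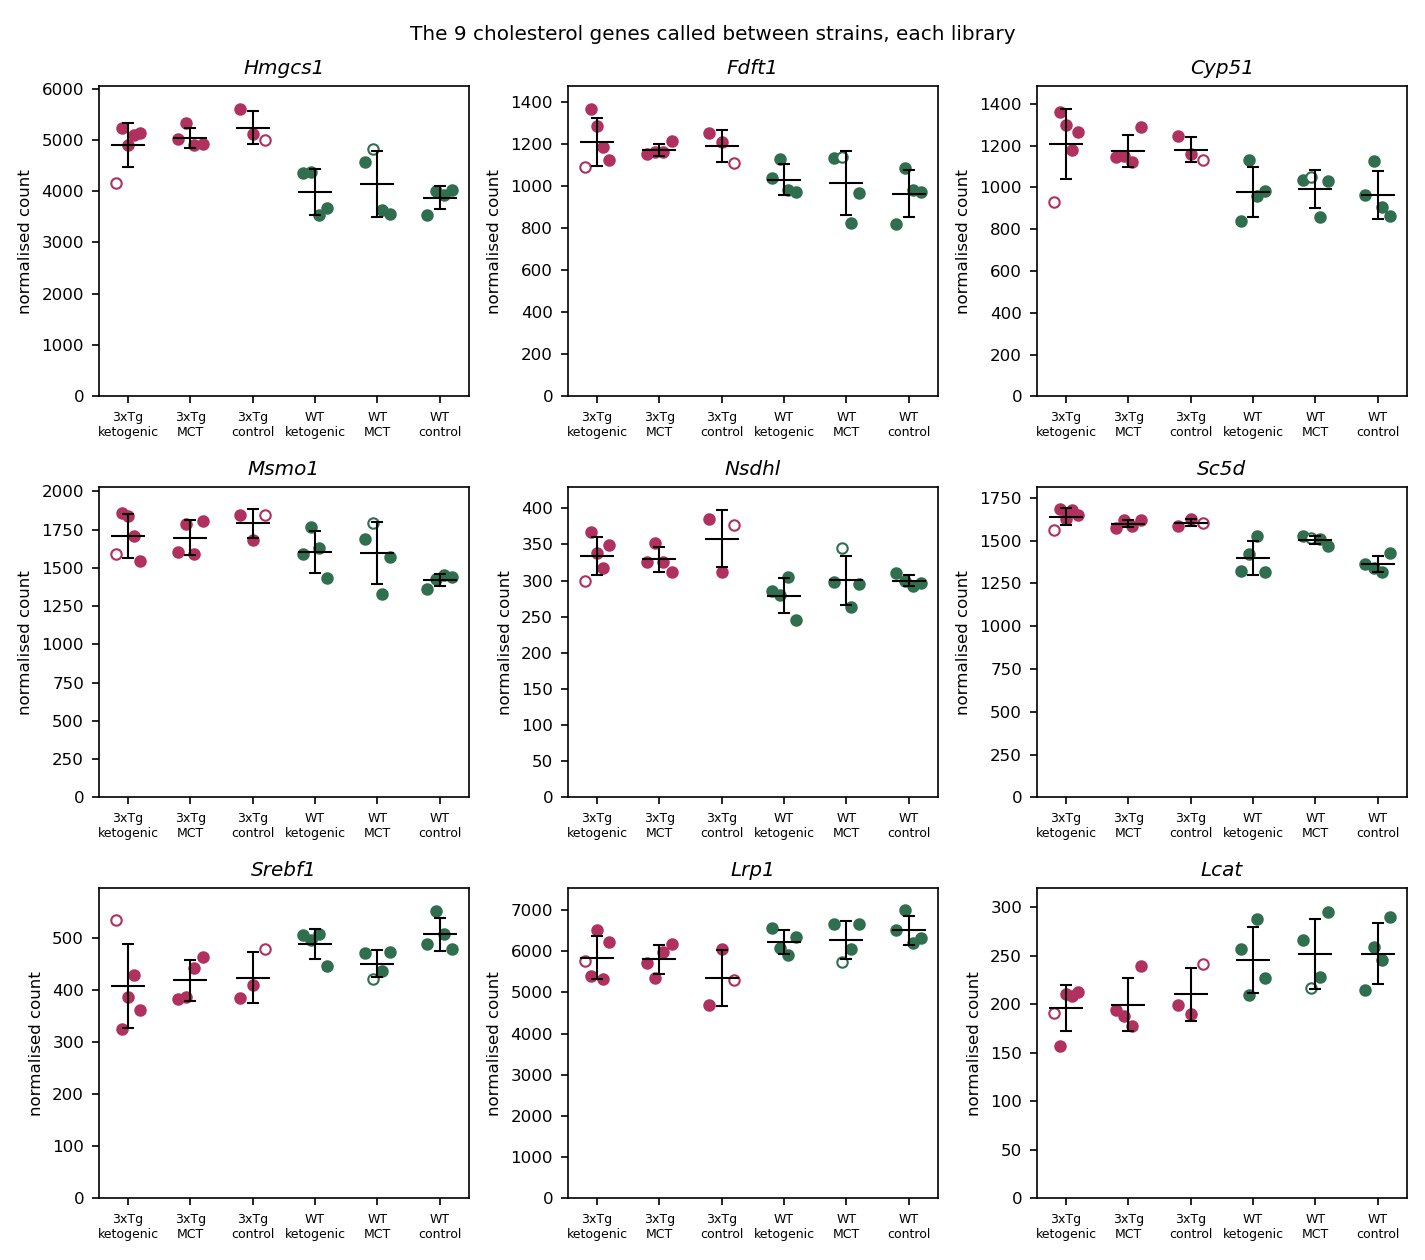
Normalised count of the 9 called genes in every library, by genotype and diet (bars: mean ± SD; 3xTg red, WT green; open circles are the 3 libraries whose Thy1 goes against their label). Sc5d is the gene whose 3xTg points, lowest 1561, all lie above its WT points, highest 1529.

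Within a single diet few members passed the test, with 3 to 5 mice a group. On the ketogenic diet 1 member of 37 passed, Sc5d, with a log2 difference of 0.23 ± 0.04 (SE, adjusted p = 0.0337, limma), against 0.155% of all genes. Its 5 3xTg ketogenic libraries ran from 1561 to 1685 and the 4 WT ketogenic libraries from 1318 to 1529. The share of all genes without overlap between these groups was not counted. The lowest 3xTg value, 1561, belongs to replicate 1, whose Thy1 goes against its label. Both edgeR and DESeq2 called Sc5d too. The call was lost without any 1 of 3xTg ketogenic replicates 2 to 5 and WT ketogenic replicates 1 and 4, with an adjusted p of up to 0.123, and when the 2 compared groups were fitted alone (0.0876). On the MCT diet limma called 0 members, against 0% of all genes, and edgeR and DESeq2 also called 0. There 4 of 37 members had an unadjusted p under 0.05, against 1008 of 14162 genes. On the control diet limma and edgeR called 0 members, against 0.0565% of all genes, and 11 of 37 had an unadjusted p under 0.05, against 2050 of 14162 genes. DESeq2 called 4 there: Hmgcs1 at 0.44, Msmo1 at 0.33, Sc5d at 0.24 and Lrp1 at -0.28. The 0.0565% is the share called by limma, and the DESeq2 count cannot be read against it. The share of all genes that DESeq2 called there is not given here, so whether these 4 exceed it cannot be told.

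From the 21 libraries Hmgcs1 passed within each diet, at 0.36 on the ketogenic diet (adjusted p = 0.00629), 0.37 on the MCT diet (0.0130) and 0.47 on the control diet (0.0065; limma). That fit called 5 members on the ketogenic diet, against 3.62% of all genes: Hmgcs1, Cyp51 (0.39), Nsdhl (0.30) and Sc5d (0.25) were higher and Srebf1 (-0.39) was lower. It called 1 member on the MCT diet, against 1.77%, and 2 on the control diet, Hmgcs1 and Sc5d, against 1.74%. On the control diet this fit had only replicates 1 and 2 as 3xTg libraries.

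The 3 comparisons of genotype within diets share no library. Of the 18 synthesis genes 12 (66.7%) were above 0 in all 3 and none was below 0 in all 3, while of all tested genes 22.3% were above and 22.99% below in all 3. From the 21 libraries 10 of the 18 (55.6%) were above 0 in all 3 and 1, Ebp, was below, against 23.9% above and 24.2% below of all genes. Of the efflux genes 4 of 7 were below 0 in all 3, Lcat at -0.32, -0.33 and -0.26 on the ketogenic, MCT and control diets. Srebf1, Srebf2 and Scap were also below 0 in all 3 and Insig1 and Insig2 above. From the 21 libraries the numbers of efflux and of sensing genes in each direction were the same. Hmgcs1 differed by 0.30, 0.30 and 0.44 on these diets, Cyp51 by 0.30, 0.25 and 0.30 and Fdft1 by 0.23, 0.22 and 0.31.

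The diets moved no member past the test in either genotype. For the ketogenic against the control diet limma, edgeR and DESeq2 each called 0 of 37 members in 3xTg mice and 0 in WT mice, against 0% of all genes by limma in both, and the same was true when the genotypes were averaged. In WT mice 1 member, Msmo1, had an unadjusted p under 0.05 (log2 difference 0.17), against 654 of 14162 genes, and in 3xTg mice 0 had, against 948. Synthesis genes lay above 0 for 7 of 18 in 3xTg mice, with a median of -0.01, and for 14 of 18 in WT mice, with a median of 0.04. Of all genes 47.9% lay above 0 in 3xTg and 49.0% in WT mice. These directions are from all 24 libraries.

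For the MCT against the control diet these 3 tools also called 0 members in 3xTg and in WT mice, against 0% of all genes in 3xTg mice and 0.00706% in WT mice by limma. In 3xTg mice 0 members had an unadjusted p under 0.05, against 378 of 14162 genes, and in WT mice 2 had, against 679. These 2 were Sc5d, at 0.14 ± 0.04 (SE, adjusted p = 0.989, limma), and Npc1, at -0.13. Sc5d ran from 1471 to 1526 in the 4 WT MCT libraries and from 1319 to 1428 in the 4 WT control libraries. The WT MCT libraries include replicate 2, whose Thy1 goes against its label. The share of all genes without overlap between these groups was not counted. Synthesis genes lay above 0 for 2 of 18 in 3xTg mice, with a median of -0.04, and for 11 of 18 in WT mice, with a median of 0.03. Of all genes 51.7% lay above 0 in 3xTg and 48.0% in WT mice. These directions, too, are from all 24 libraries. Both comparisons in 3xTg mice use the same 3 control libraries, which also enter the genotype comparison on the control diet. Among these 3, the Thy1 of replicate 3 goes against its label.

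Whether a diet acted differently by genotype was tested directly, and 0 members passed for either diet by limma, edgeR or DESeq2, against 0% of all genes by limma for both. Each interaction had 1 member at an unadjusted p under 0.05, Msmo1 for the ketogenic diet (-0.24, adjusted p = 0.742) and Sc5d for the MCT diet (-0.15, adjusted p = 0.9998). Of all 14162 genes 946 and 393 were under 0.05 in these interactions. For the ketogenic against the MCT diet, averaged over genotypes, limma, edgeR and DESeq2 called 0 members, against 0.00706% of all genes by limma. There 0 members had an unadjusted p under 0.05, against 673 genes. From the 21 libraries limma called 0 members in each of these diet comparisons and interactions, against 0.0212% of all genes for the MCT against the control diet in WT mice, 0.0142% for the MCT against the control diet averaged over genotypes, 0.0142% for the ketogenic against the MCT diet, 0.0142% for the MCT interaction and 0% for the others.

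**Figure D4:**
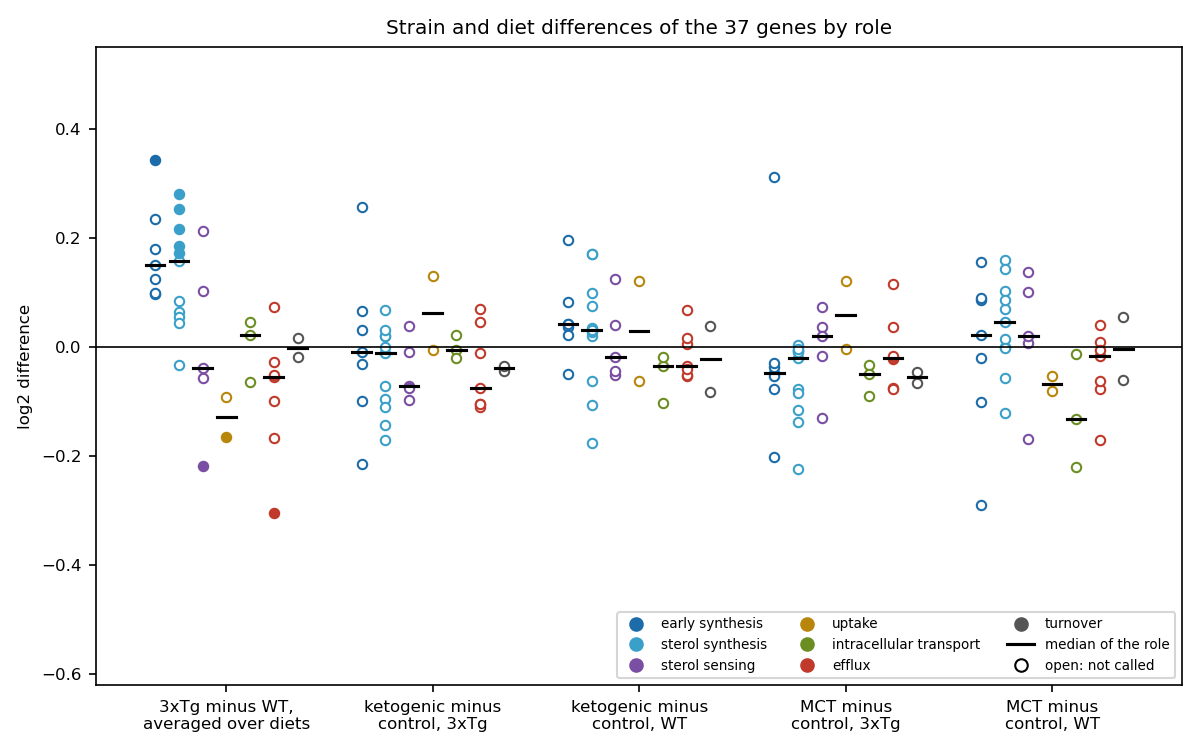
Log2 difference of each of the 37 genes in the genotype comparison averaged over diets and in 4 diet comparisons, coloured by role (horizontal bars: median of the role; filled: passed the test). Filled points occur in the genotype comparison, and none in the diet comparisons, where the role medians lie near 0.

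A further 78 genes of these routes were listed beside the 37, and 72 of them were tested. Of these 5 (6.94%) passed in the genotype comparison averaged over diets, close to the 8.10% of all genes. Higher in 3xTg mice were Scarb2, a lysosomal membrane protein (0.20 ± 0.04, SE, adjusted p = 0.00118, limma), and Apod, a lipocalin of glia (0.42 ± 0.09, SE, adjusted p = 0.00609, limma). Apod ranged from 1400.5 to 2497 in 3xTg libraries, with a median of 1827, against 1031 to 1897 in WT libraries, with a median of 1291. Lower were Abca3, a lipid transporter (-0.19, adjusted p = 0.0292), Pltp, the phospholipid transfer protein (-0.21, adjusted p = 0.0393), and Fasn, fatty acid synthase (-0.14, adjusted p = 0.0408). Each of these 3 lost its call when 1 library was left out, Abca3 for 6 of the 24 libraries, Pltp for 15 and Fasn for 14: the adjusted p of Abca3 and Fasn was 0.0746 and 0.123 without 3xTg control replicate 1, and that of Pltp was 0.0931 without 3xTg control replicate 2. Abca3 also lost it in the 21 libraries (0.0515), where 9 of the 72 (12.5%) passed, 3 higher and 6 lower, against 13.2% of all genes. Of the 15 further synthesis and isoprenoid genes tested, 0 passed by limma (3 at an unadjusted p under 0.05, against 3456 of 14162 genes).

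Levels in whole tissue are sums over cell types, and fewer cells of a type and less RNA per cell cannot be told apart. Of the oligodendrocyte markers 2 of 10 tested rose (Mobp 0.23 and Cldn11 0.22), where 8.10% of all genes were called, and the summed level of the 11 listed ranged from 47904 to 63837 in 3xTg libraries, with a median of 56124, against 41044 to 65345 in WT libraries, with a median of 48798, and the genotypes overlapped. In the 21 libraries 1 was called higher and 1 lower, and their median log2 difference was 0.02, against 0.09 in all 24, while that of the 18 synthesis genes was 0.16, against 0.15. Astrocyte markers rose for 2 of 9 (Gfap 0.24, Slc1a3 0.10), with sums from 93893 to 103487 in 3xTg and from 87264 to 105739 in WT libraries. Microglial markers rose for 3 of 8 (Tmem119, C1qa and C1qb). In the 21 libraries 3 of 9 astrocyte and 4 of 8 microglial markers rose, where 13.2% of all genes were called. The part of these cells in the cholesterol gene differences was not tested.

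Endothelial markers fell for 2 of 6 (Cldn5 -0.43, Flt1 -0.22) and dentate granule cell markers for 4 of 6 (C1ql2 -1.10, Lct -0.70, Prox1 -0.30, Stxbp6 -0.26). Neuronal markers split, with Gad2 at 0.12 and Rbfox3 at -0.15 called of 8. In the 21 libraries 3 of 6 endothelial and 4 of 6 dentate granule cell markers fell, and of the neuronal markers 1 was higher and 1 lower. None of the markers of oligodendrocyte precursors, choroid plexus, meningeal fibroblasts or ependyma was called by limma (5 of 24 tested at an unadjusted p under 0.05, against 3456 of 14162 genes). Choroid plexus genes summed to at most 823 in 3xTg libraries, against 13114 in WT control replicate 1 and 4868 in WT ketogenic replicate 1, and Kcnj13, Otx2 and Aqp1 were at 0 in some libraries. The mean synthesis level described next was the lowest of its group in WT control replicate 1 but not in WT ketogenic replicate 1.

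As a single description of each library, the mean log2 level of the 18 synthesis genes was set against the mean of the WT control libraries. It ranged from -0.01 to 0.24 in 3xTg ketogenic, from 0.09 to 0.27 in 3xTg MCT and from 0.10 to 0.26 in 3xTg control libraries. In WT mice it ranged from -0.03 to 0.13 on the ketogenic, from -0.09 to 0.14 on the MCT and from -0.09 to 0.09 on the control diet. The lowest 3xTg value belongs to ketogenic replicate 1, whose Thy1 goes against its label, while 3xTg control replicate 3, of which the same is true, had the highest value of its group.

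**Figure D5:**
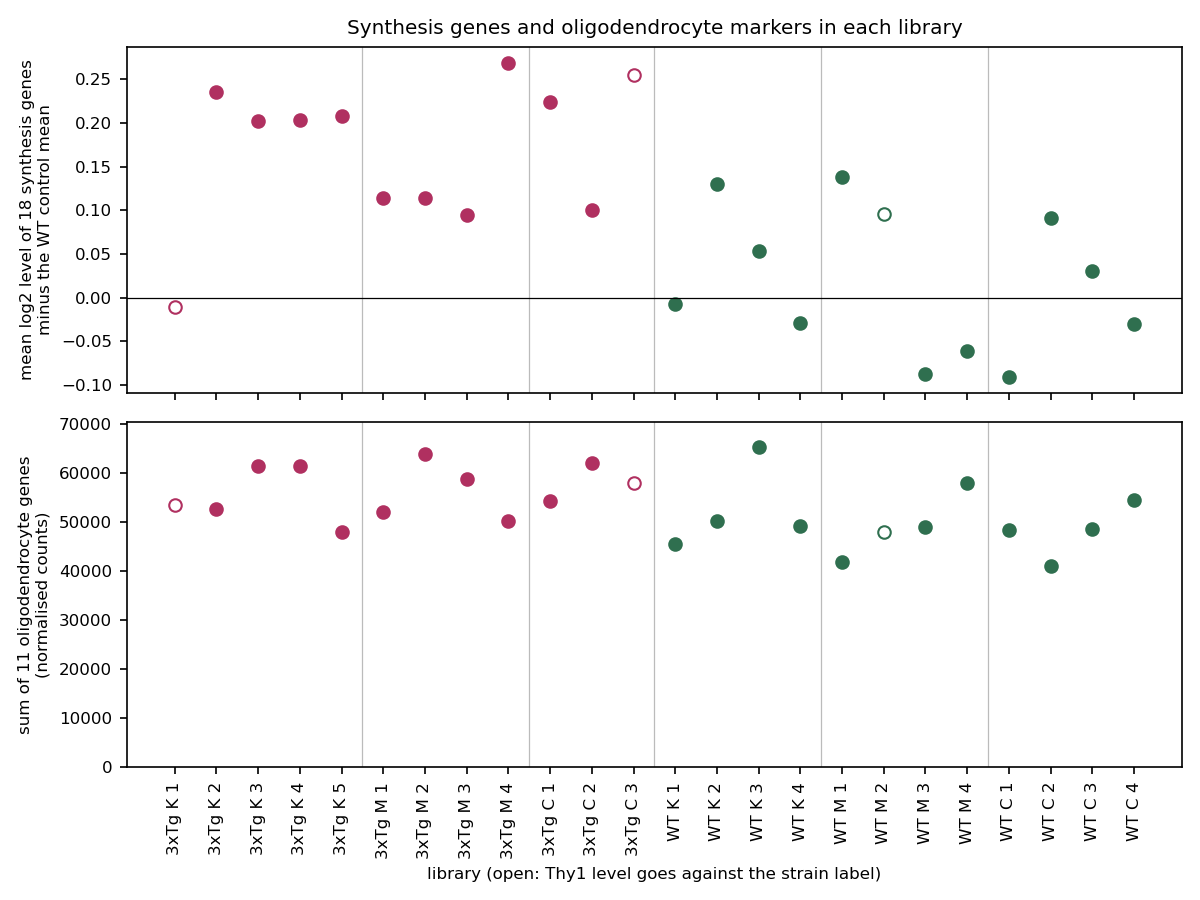
Mean log2 level of the 18 synthesis genes relative to the WT control mean (top) and summed normalised counts of the 11 oligodendrocyte genes (bottom) in each library (3xTg red, WT green; K ketogenic, M MCT, C control diet; open: Thy1 goes against the label). The 3xTg libraries reach 0.27 in the upper panel and the WT libraries 0.14, and both panels overlap between genotypes.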

How the data were processed

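RNA was sequenced from 24 hippocampi with an mRNA (poly(A)) kit. The deposited table holds the authors' normalised counts per gene, a signal of reads divided by a factor per library. Per the submitters' processing notes Trimmomatic, STAR and GRCm38 were used, while the counter, its strand setting and its annotation appear in none of the sources used here. Steps of the deposited values gave back whole reads (100% of values within 0.01 of a whole number), which set the depths and served edgeR 4.0.16 and DESeq2 1.42.0 as alternatives. The main test was limma 3.58.1 on log2(normalised count + 1) with 1 mean per group and a mean-variance trend, over genes with at least 10 in 3 or more libraries, 2-sided, with Benjamini-Hochberg adjustment over these 14162 genes and a threshold of 0.05. Fold changes on this scale understate changes of low genes. Averaged genotype differences weight the 3 diets equally.

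The 37 members and all lists were chosen with earlier results of these data known. Every called member is given in each library, a role with none by its 2 members of smallest p, and called genes among the further 78 are named. Gene positions are those of GENCODE M21 on GRCm38. 1 listed cell type marker is not reported here and was left out of its list's counts and sums. Scripts were tested on simulated data. Alternatives changed pseudocount, filter, scaling, tool, library weights, replicate block and libraries. Replicate numbers are not given as pairing mice: 11 of 55 same-numbered pairs correlated above 0.1. Tests compare mice, 3 to 5 a group in the main fit and fewer in a group from which libraries were left out.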

Additional observations from a re-analysis of the deposited data

Results flagged for a closer look

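In 17 of 185 gene and group combinations, 1 library stood far from the others of its group by the gap between it and its nearest neighbour, and chance flags about 1 in 20 groups. The 3xTg control group has 3 libraries and was not examined in this way. Among the 3xTg libraries, Hmgcs1 was 4152 normalised counts in ketogenic replicate 1 (others 4889.9 to 5224) and Hsd17b7 was 355 in the same library (others 416 to 431), which is one of those whose Thy1 goes against its label. Fdft1 was 1217 in 3xTg MCT replicate 4 (others 1155 to 1165) and Cyp51 was 1288 in the same library (others 1123 to 1149). Nr1h3 was 20.7 in 3xTg MCT replicate 1 (others 31.6 to 33.3), and Soat1 was 827 in 3xTg ketogenic replicate 5 (others 707 to 738).

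Among the WT MCT libraries, Mvd was 114.7 in replicate 3 (others 129.7 to 132) and Cyp51 was 858 there (others 1029 to 1052). Idi1 was 23.1 in replicate 4 (others 45.2 to 51.8) and Hsd17b7 was 399 there (others 427 to 433), and Cyp46a1 was 1286 in replicate 1 (others 1132 to 1147). Among the WT control libraries, Sqle was 816 in replicate 1 (others 921 to 942). In WT control replicate 2, Tm7sf2 was 139 (others 98.4 to 104), Npc1 was 1164 (others 1230.3 to 1241) and Npc2 was 653 (others 617 to 621). In WT ketogenic replicate 3, Lss was 490.2 (others 414 to 423) and Apoe was 17008 (others 14571 to 14948).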

How the results depend on the processing

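Averaged over diets, between 8 and 12 of the 37 genes passed under the alternatives other than leaving out 1 library (9 as reported), and 6 to 11 when 1 library was left out, 6 without 3xTg control replicate 1 and 11 without WT control replicate 2. Hmgcs1, Sc5d, Fdft1, Cyp51, Nsdhl and Lcat stayed called under every alternative run. On the control diet (0 as reported) 1 gene passed with no filter and 1 with a filter at a mean of 50. There DESeq2 called 4, and the share of all genes it called is not given here. Without the 3 libraries whose Thy1 goes against their label 2 passed, and without these and the library with the fewest reads 3 passed. Without 1 library 0 to 1 passed on this diet. On the ketogenic diet (1 as reported) 5 passed without the 3 libraries, 4 without these and the library with the fewest reads, 0 without that library alone, 0 with the compared groups alone and 0 to 4 without 1 library. On the MCT diet (0 as reported) 1 passed without the 3 libraries, 1 without these and the library with the fewest reads, and 0 to 1 without 1 library. The number of all genes called moved too, from 576 to 1511 without 1 library, averaged over diets. It ran from 0 to 104 on the control, 0 to 325 on the ketogenic and 0 to 97 on the MCT diet. Without the 3 libraries 13.2% of all genes passed averaged over diets, and 1.74%, 3.62% and 1.77% on these diets. With a replicate block 8 of the 37 passed averaged over diets (Srebf1 adjusted p = 0.0537) and 0 on the ketogenic diet (Sc5d adjusted p = 0.0535), and 6 of 24 libraries correlated best with their own number. Differences near 0 changed sign (ranges without 1 library: Npc2 -0.00380 to 0.0440, Cyp46a1 -0.00271 to 0.0362): Npc2 was -0.00380 without the library with the fewest reads and -0.0194 without it and the 3 libraries, Cyp46a1 was -0.000441 with library weights, -0.00203 without those 4 libraries and -0.00271 without WT control replicate 1, and Soat1 was 0.00641 without those 4. The causes were not tested. Depth limits 3xTg ketogenic replicate 2 (2653427 reads) and genes such as Fdps and Nr1h3.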
